A study of Mus musculus with 24 samples.

Results

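The 76 genes described here carry the symbols of mitochondrial ribosomal proteins. They are every gene of the authors' normalized table of 12889 genes whose symbol starts with Mrpl or Mrps followed by a digit, 47 Mrpl and 29 Mrps symbols. All 76 are also in the table of read counts (18919 genes), and all 76 passed the filter on low counts, so they are 76 of 13294 genes tested. The cells were primary mouse microglia, the resident macrophages of the brain, from animals labelled age p0. Wild-type (WT) cells came from C57BL/6 mice, and the knockout (KO) cells came from the strain B6.129S4-Cd14tm1Frm/J, which lacks Cd14, a co-receptor that hands lipopolysaccharide (LPS) to Toll-like receptor 4. Cells of each genotype were left untreated or were given Re-LPS (a rough-form bacterial LPS) at 0.1 ng/ml, Re-LPS at 10 ng/ml, or mouse fibronectin at 100 µg/ml, and all were taken at 3 h. That gives 8 groups of 3 libraries, 24 in all, from 3 separate preparations of cells according to the series' design text. The Cd14 deletion is present in the whole animal, and each library is a bulk culture, so a gene's lower level may mean fewer cells that express it or less RNA per cell, and these cannot be told apart.

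The mitochondrial ribosome, or mitoribosome, translates the few messenger RNAs made from mitochondrial DNA, which in mammals all encode subunits of the oxidative phosphorylation complexes. Its ribosomal RNAs are also made in the mitochondrion, but every one of its proteins is encoded in the nucleus, made in the cytosol and imported. Some of these proteins have counterparts in bacterial ribosomes, and others are found only in mitochondria. By the assignments used here, 49 members belong to the large subunit and 26 to the small subunit. Mrps18a and Mrps30 are counted in the large subunit, where structures place them despite their names. Mrps36, now known as a component of the 2-oxoglutarate dehydrogenase complex, is in neither. Bacterial-type proteins number 46 and mitochondria-specific ones 29. The genes lie on 17 chromosomes.

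Promoter sequence of 4 members is shown because they are the largest rises (Mrpl52 and Mrpl3) and the largest falls (Mrpl41 and Mrpl34) at 10 ng/ml LPS in WT cells among members whose window overlaps annotated exons by no more than 30 bases. Each run is the 250 bases before the gene's start in RefSeq (build GRCm38.p6), read 5′ to 3′ on the gene's strand. In 67 of 73 member windows the bases just after the start matched an annotated transcript of the gene. The Mrpl34 window was not among these, so its start and strand are less certain. Capitals mark a match to a searched motif: the ETS core in Mrpl3, 19 bases before the start, and the NF-kB motif in Mrpl34, 35 bases before it. The windows are chr14:54426659-54426908 (forward strand) for Mrpl52, chr9:105053018-105053267 (forward strand) for Mrpl3, chr2:24975099-24975348 (reverse strand) for Mrpl41 and chr8:71464676-71464925 (forward strand) for Mrpl34.
Mrpl52: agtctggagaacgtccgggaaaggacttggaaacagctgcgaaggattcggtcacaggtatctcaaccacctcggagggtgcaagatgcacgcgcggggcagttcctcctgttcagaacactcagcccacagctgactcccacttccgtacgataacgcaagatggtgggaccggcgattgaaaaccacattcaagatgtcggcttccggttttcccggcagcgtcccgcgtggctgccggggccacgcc
Mrpl3: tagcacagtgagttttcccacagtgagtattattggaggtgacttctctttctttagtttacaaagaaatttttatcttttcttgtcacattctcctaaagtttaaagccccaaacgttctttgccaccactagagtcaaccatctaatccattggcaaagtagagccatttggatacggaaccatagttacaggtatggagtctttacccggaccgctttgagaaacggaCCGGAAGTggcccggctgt
Mrpl41: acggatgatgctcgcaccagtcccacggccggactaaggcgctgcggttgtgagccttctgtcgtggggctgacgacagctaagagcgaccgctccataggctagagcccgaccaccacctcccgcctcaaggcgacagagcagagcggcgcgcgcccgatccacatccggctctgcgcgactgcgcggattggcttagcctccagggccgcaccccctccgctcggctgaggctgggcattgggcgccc
Mrpl34: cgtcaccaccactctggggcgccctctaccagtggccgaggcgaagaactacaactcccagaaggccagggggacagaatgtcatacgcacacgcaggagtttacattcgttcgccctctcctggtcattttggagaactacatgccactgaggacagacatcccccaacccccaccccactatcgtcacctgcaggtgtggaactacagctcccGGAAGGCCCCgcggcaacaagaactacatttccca
The Mrpl52 and Mrpl41 runs held none of the searched letters, though an ETS core begins 1 base after the Mrpl52 start, just past its run. Motifs were searched on both strands in windows of 300 bases (250 before and 50 after the start), available for 67 of the 76 members, and overlaps between motifs were allowed. The NRF1 core CGCATGCG was found in 7 member windows, 10.4% of the 67, against 3.38% of the windows of 12890 counted genes. The ETS core CCGGAAGT was in 12 (17.9% against 6.77%) and the YY1 motif AAGATGGC in 12 (17.9% against 4.09%). The E-box CACGTG was in 5 (7.46% against 10.4%) and the NF-kB motif in 5 (7.46% against 12.2%). At least 1 of the NRF1, ETS and YY1 motifs was in 29 member windows, 43.3% against 13.3% of counted genes, and the median GC content was 58.0% in members and 59.0% in counted genes. Among members that rose in WT cells at 10 ng/ml LPS, 9 of 13 with a window held at least 1 of these 3 motifs, and 0 of 13 held the NF-kB motif. Of those that fell it was 4 of 11 and 3 of 11, and of those that passed in neither direction 16 of 43 and 2 of 43. These are matches of letters, not shown binding sites.

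Library totals ran from 14939019 to 22143774 counted reads, and a member had on average 48.5 or more reads per library. Cd14 stood at 2.18 to 6.49 CPM (depth-scaled read counts, with libraries put on a common scale by edgeR's TMM factors) in KO libraries and at 344 to 5428 in WT libraries. Tnf, an inflammatory cytokine, averaged 26.7 CPM in untreated WT cells, 6771 at 10 ng/ml LPS and 7614 with fibronectin. The 9 microglial markers summed to 7257 to 10020 CPM in every library, against at most 45.4 for 8 astrocyte markers and 487 for 10 oligodendrocyte markers. Marker sums of vascular and fibroblast cells were higher with 10 ng/ml LPS (10.1 to 33.9 CPM over both genotypes) and with fibronectin in WT cells (10.6 to 33.4) than in untreated cells (1.30 to 8.997), with Cldn5, an endothelial marker, at 0 in some libraries. Over the same groups the microglial sum was lower, 7257 to 8381 CPM against 8718 to 10020 untreated. Single genes changed strongly within these sums. At 10 ng/ml LPS Pdgfrb went from a mean of 0.24 to 17.3 CPM in WT and from 0.17 to 23.6 in KO cells, while Acta2 was not called. Cx3cr1 went from 1108 to 187 CPM in WT and from 1065 to 355 in KO cells. Microglial markers did not move alike: in KO cells Tmem119 rose from 13.4 to 38.4 CPM and P2ry12 fell from 18.1 to 7.3. Csf1r was called in neither genotype. The sums thus do not tell cell numbers from changes in single genes. The part of either sum's change in the members' values was not tested.

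The 8 libraries that the labels number 1 stood apart from those numbered 2 and 3, in several members by far. For 13 of the 76 members every library numbered 1 lay above all the other 16, and for 0 below. Over all genes tested these shares were 5.91% and 0.263%, together 6.18%. Mrpl23, a large subunit protein at the exit of the peptide tunnel, read 8.92 to 10.4 CPM in the 8 libraries numbered 1 (106 to 232 reads) and 0 to 0.308 CPM (0 to 7 reads) in the other 16. Mrps33 read 17.9 to 22.04 against 2.26 to 3.98 CPM, and Mrps36 5.40 to 6.88 against 0.823 to 1.92 CPM. Mrpl51 (19.3 to 29.6 against 7.47 to 13.5) and Mrpl48 (11.8 to 20.9 against 5.601 to 9.26) also showed no overlap. The difference ran through all 8 groups alike. It therefore adds to the spread within each group, and the counts below are also given without these 8 libraries where that moves them by more than 1.5 times.

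Per kilobase of the main transcript, Mrpl52 had the highest level of the 76 when all 24 libraries were averaged (90.5 CPM per kb), followed by Mrpl33 (47.6), Mrpl20 (46.2) and Mrps21 (40.3). Mrpl47 had the lowest, 1.57. The median was 14.5 CPM per kb over the members, 17.0 for the large subunit and 11.7 for the small, against 63.6 for 77 cytosolic ribosomal protein genes and 7.69 for all tested genes with a length. The order partly follows the group: in untreated WT cells Mrpl52 read 39.7 ± 6.7 CPM per kb (SD, n = 3), below the 46.1 ± 5.5 of Mrpl33 by less than the sum of their SDs. Most members varied little between the 8 group means: the highest mean was 1.34 times the lowest in the median member. It was over 1.5 times in 23 members and over 2 times in 5, namely Mrpl52 (3.69), Mrpl39 (2.34), Mrpl41 (2.19), Mrpl49 (2.18) and Mrps35 (2.16). Mrpl11 (1.08) and Mrps9 (1.08) varied least.

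The members' summed share of counted reads depended on group far more than their scaled sum did. The 76 genes took 0.175% to 0.185% of reads in untreated WT cells and 0.153% to 0.175% at 0.1 ng/ml LPS. At 10 ng/ml the share was 0.110% to 0.117%, and with fibronectin 0.110% to 0.116%, in both cases below every untreated library. In KO cells it was 0.178% to 0.186% untreated, 0.169% to 0.191% at 0.1 ng/ml, 0.136% to 0.151% at 10 ng/ml and 0.177% to 0.180% with fibronectin. Only the KO group at 10 ng/ml lay wholly below untreated KO cells. After TMM scaling, which sets libraries so that the bulk of genes keeps its level, the members summed to 1408 to 1605 CPM in untreated WT cells and 1483 to 1792 at 10 ng/ml, and the 8 groups overlapped. The large subunit sum was 2.30 to 2.69 times the small subunit sum in every library.

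**Figure D1:**
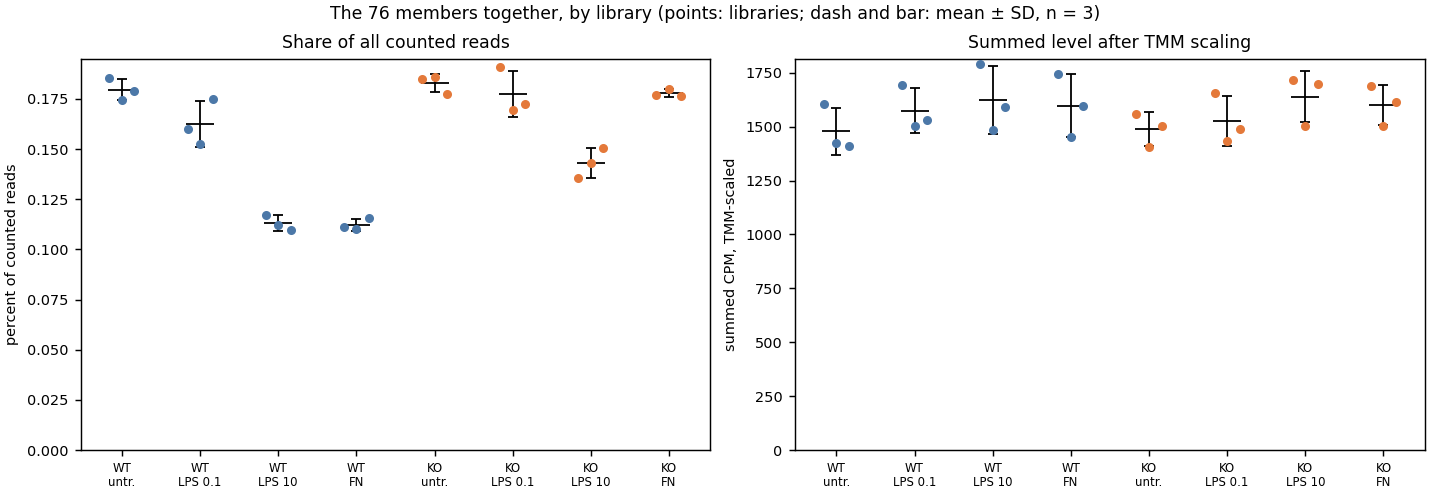
The 76 members together in each of the 24 libraries: left, percent of all counted reads; right, summed CPM after TMM scaling. Points are libraries and the dash and bar are mean ± SD (n = 3); the share falls to 0.110% to 0.117% in WT cells at 10 ng/ml LPS, while the scaled sums of the groups overlap.

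Directions below are therefore relative to the bulk of genes. In WT cells at 10 ng/ml LPS against untreated, the median log2 fold change was 0.07 in the members and −0.01 over all 13294 genes under TMM. It was 0.14 and 0.06 under relative log expression scaling (RLE), −0.18 and −0.25 under upper quartile scaling, and −0.73 and −0.80 when only library totals were used. A scaling shifts every gene of a comparison by nearly the same amount. The gap between these medians therefore hardly depends on the scaling and is no check of the result. The plot of log2 fold changes by scaling shows both medians shifting. Under TMM the members' median was 0.05 to 0.23 above that of all genes when 1 library was left out.

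**Figure D2:**
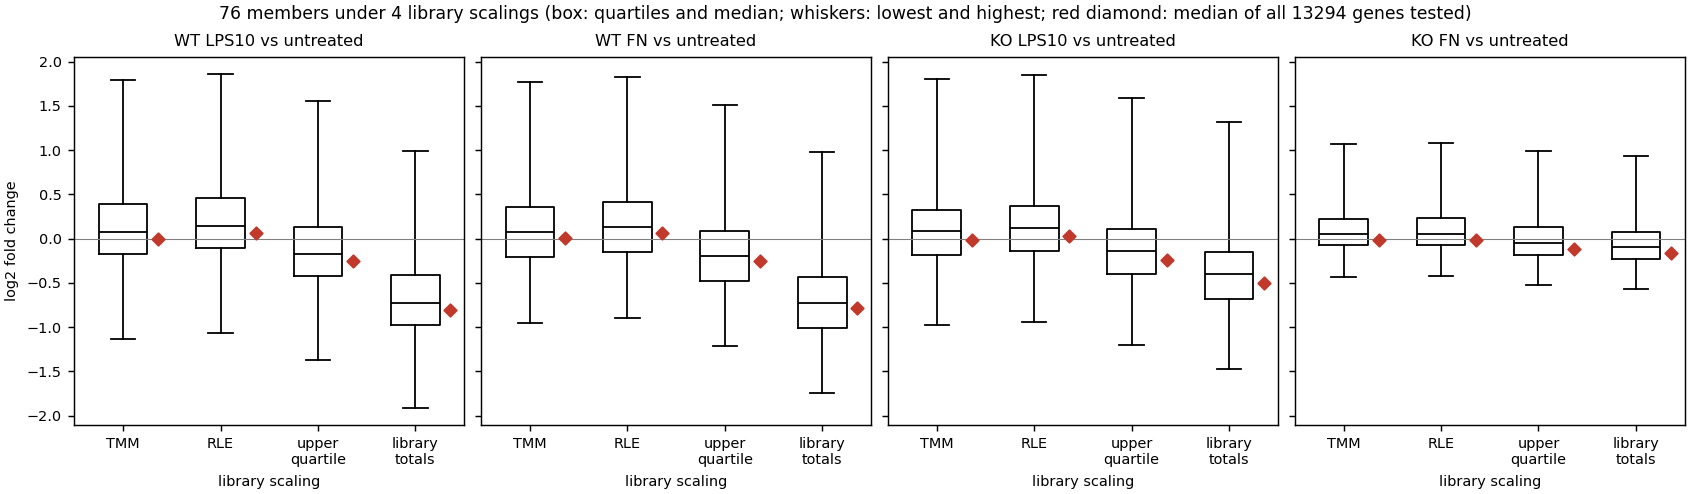
Log2 fold changes against untreated cells of the 76 members under 4 library scalings, for 4 comparisons. Boxes give quartiles and median, whiskers the lowest and highest member, and the red diamond the median of all genes tested. A scaling shifts all genes of a comparison nearly alike, so members' median and diamond shift together whatever the data. In WT cells at 10 ng/ml LPS they go from 0.07 and −0.01 with TMM to −0.73 and −0.80 with library totals.

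In WT microglia at 10 ng/ml LPS, 15 of the 76 members rose and 12 fell by edgeR's quasi-likelihood test (Benjamini-Hochberg adjusted p under 0.05 over all genes), while 23.3% of all genes tested rose and 26.1% fell. The members' shares were 19.7% and 15.8%. Both subunits had members on both sides: 12 rose and 9 fell of 49 in the large subunit, and 3 and 3 of 26 in the small. Of the 46 bacterial-type members 8 rose and 3 fell, and of the 29 mitochondria-specific ones 7 rose and 9 fell. With 1 library left out, 21 to 25 members were called, and 17 of the 27 kept their call in all 6 such fits. The split depends on the scaling: 19 rose and 9 fell with RLE, 8 and 21 with upper quartile scaling, and 1 (Mrpl52) and 52 with library totals, where 10.9% and 55.7% of all genes did. For RLE and upper quartile scaling, here and below, the shares of all genes are not given, so these counts cannot be set against them. Fitting the library number as a block within genotype gave 27 rises and 16 falls, where 70.2% of all genes were called. It kept all 27 calls.

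**Figure D3:**
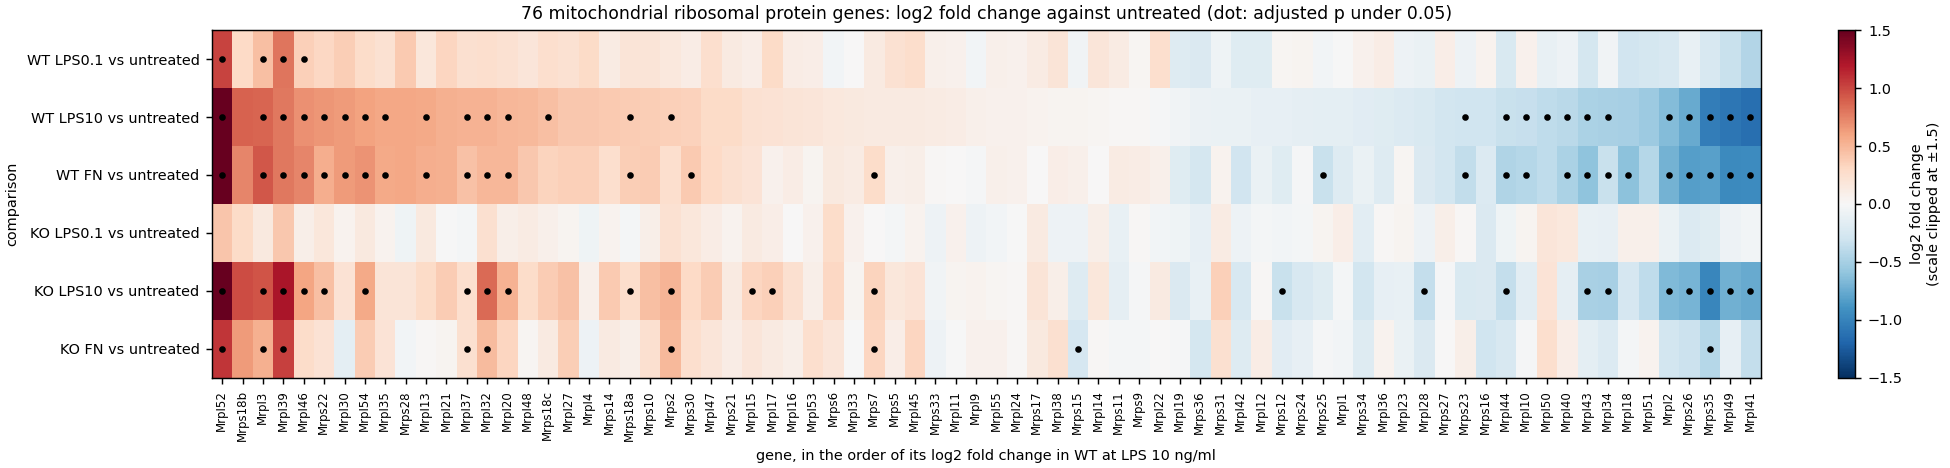
Log2 fold change of each of the 76 members (columns, ordered by the value in WT cells at 10 ng/ml LPS) against untreated cells of the same genotype in 6 comparisons. Red is higher and blue lower under TMM scaling, and dots mark adjusted p under 0.05: 27 in WT cells at 10 ng/ml, 28 with fibronectin, 24 in KO cells at 10 ng/ml, 9 in KO cells with fibronectin, 4 in WT and 0 in KO cells at 0.1 ng/ml; with library totals only, most of the red turns blue.

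Mrpl52, a mitochondria-specific protein of the large subunit, had the largest rise. It read 14.4, 19.8 and 15.5 CPM in the untreated WT libraries 1 to 3 and 52.4, 53.9 and 66.7 CPM at 10 ng/ml. The 2 groups lay far apart, with the lowest LPS library above 2 times the highest untreated one. The log2 fold change was 1.797 (SE 0.18, edgeR adjusted p = 1.3e-07), a 3.48-fold rise that stayed called under each of the 4 scalings and was smallest with library totals (0.9953). Mrpl3, the bacterial-type protein uL3m near the peptidyl transferase centre, read 29.0, 31.6 and 30.5 CPM untreated and 59.0, 51.7 and 56.4 CPM at 10 ng/ml, again without overlap (log2 fold change 0.87, SE 0.13, edgeR adjusted p = 1.18e-05).

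Mrpl39, a mitochondria-specific large subunit protein, read 21.7, 25.8 and 26.8 CPM untreated and 34.7, 39.2 and 55.2 CPM at 10 ng/ml. Its spread was wide in the LPS group, library 3 being the highest, but no library overlapped (log2 fold change 0.80, SE 0.16, edgeR adjusted p = 0.00038). Mrpl46, also mitochondria-specific, went from 15.2 ± 0.90 to 24.4 ± 2.2 CPM (SD, n = 3), a 1.60-fold rise (edgeR adjusted p = 2.49e-05). Mrps22, the small subunit member with the largest rise, went from 10.8 ± 1.0 to 17.0 ± 0.30 CPM (log2 fold change 0.66, SE 0.14, edgeR adjusted p = 0.000619). Mrpl39, Mrpl46 and Mrps22 turned slightly negative with library totals (−0.01, −0.12 and −0.14), so that their rise is a rise against the bulk of genes. Of the 15 rises only those of Mrpl52 and Mrpl3 (0.069) kept a positive sign with library totals. Mrpl30 rose by 0.64 (edgeR adjusted p = 0.0414), but its call was lost without untreated library 2 (0.49) or 3 (0.61) and without LPS library 1 (0.48) or 3 (0.68). The remaining rises, from 0.36 to 0.61 on the log2 scale, were those of Mrpl54, Mrpl35, Mrpl13, Mrpl37, Mrpl32, Mrpl20, Mrps18c, Mrps18a and Mrps2.

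The falls were led by 3 mitochondria-specific members. Mrpl41, a large subunit protein, read 19.2, 11.3 and 12.1 CPM in untreated WT libraries and 6.98, 7.32 and 5.14 CPM at 10 ng/ml. Untreated library 1 stood highest, and all LPS libraries lay below all untreated ones (log2 fold change −1.13, SE 0.25, edgeR adjusted p = 0.000893). Mrpl49, also of the large subunit, read 29.9, 23.4 and 28.5 CPM against 12.5, 12.4 and 13.6 CPM, a fall to 0.470 of the untreated level (log2 fold change −1.09, SE 0.14, edgeR adjusted p = 1.98e-06). Mrps35, of the small subunit, read 8.73, 10.4 and 11.7 CPM against 5.21, 4.34 and 5.42 CPM (log2 fold change −1.04, SE 0.14, edgeR adjusted p = 5.41e-06). In neither gene did the groups overlap.

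Mrpl2 (uL2m, a bacterial-type protein next to the peptidyl transferase centre) had little spread and went from 26.6 ± 1.1 to 16.9 ± 0.66 CPM (SD, n = 3). Its log2 fold change was −0.65 (SE 0.10, edgeR adjusted p = 1.56e-05). Mrpl34, a small bacterial-type protein, went from 18.7 ± 1.1 to 13.3 ± 1.1 CPM (log2 fold change −0.49, SE 0.09, edgeR adjusted p = 0.000196). Mrps26 fell by 0.76 on the log2 scale (edgeR adjusted p = 0.0244), and was not called without untreated library 1 (−0.56) or without LPS library 2 (−0.69) or 3 (−0.61). Mrpl43, Mrpl40, Mrpl50, Mrpl10, Mrpl44 and Mrps23 fell by 0.30 to 0.47. All 12 falls stayed called, in the same direction, with library totals and with upper quartile scaling.

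**Figure D4:**
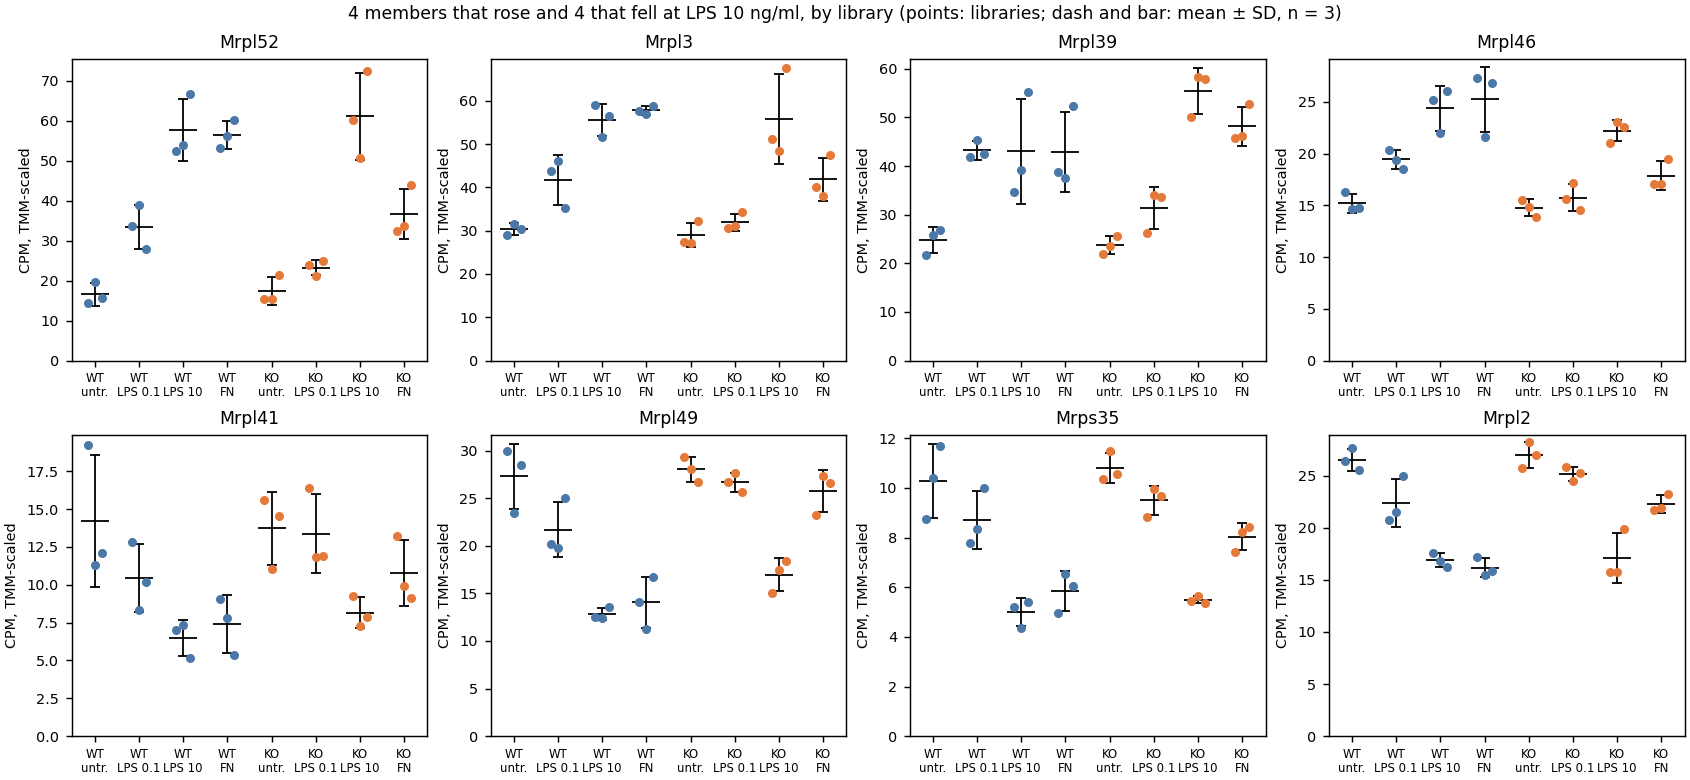
TMM-scaled CPM in each library of 4 members that rose (top) and 4 that fell (bottom) in WT cells at 10 ng/ml LPS, for all 8 groups (blue WT, orange KO; dash and bar are mean ± SD, n = 3). Mrpl52 climbs from 14.4 to 19.8 CPM in untreated WT libraries to 52.4 to 66.7 at 10 ng/ml LPS and 53.2 to 60.1 with fibronectin, while KO cells with fibronectin reach 32.5 to 44.0, and the rises of Mrpl39 and Mrpl46 turn slightly negative with library totals.

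At 0.1 ng/ml LPS the members moved little. In WT cells 4 rose and 0 fell, where 9.94% of all genes rose and 5.66% fell. Mrpl52 read 33.7, 38.9 and 27.8 CPM, all above the untreated libraries and all below those at 10 ng/ml, and its log2 fold change against untreated was 1.01 (SE 0.18, edgeR adjusted p = 0.00045). Mrpl39 read 41.8, 45.3 and 42.5 CPM, within the range it had at 10 ng/ml (0.80, SE 0.16, edgeR adjusted p = 0.00152). Mrpl3 (0.46) and Mrpl46 (0.35) also passed, but each lost the call without 4 of the 6 single libraries. Mrpl3 lost it without untreated library 1 (0.42) or 3 (0.46) or LPS library 1 (0.42) or 2 (0.39), and Mrpl46 without untreated library 2 (0.33) or 3 (0.33) or LPS library 1 (0.32) or 2 (0.37). The count was 2 without untreated library 3 or LPS library 2 and 9 without LPS library 3. It was 1 without the 8 libraries numbered 1, 26 with the block of library numbers (41.5% of all genes) and 8, of which 2 rose and 6 fell, with library totals (6.96% and 12% of all genes). Without the 8 libraries numbered 1 the rise of Mrpl52 was 0.92 and was not called (edgeR adjusted p = 0.0608). In KO cells at 0.1 ng/ml, edgeR called 0 of 76 members, with 2 at an unadjusted p under 0.05. DESeq2 and limma also called 0, the block of library numbers called 1 (3.87% of all genes), and by edgeR 0.722% of all genes rose and 0.00752% fell.

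Set against each other, WT cells at 10 and at 0.1 ng/ml LPS differed in 13 members, 5 higher and 8 lower at the higher dose, where 14.8% of all genes were higher and 17.4% lower. Mrpl52 was higher by 0.78 (SE 0.18, edgeR adjusted p = 0.00196), and Mrps35 and Mrpl49 were lower by 0.80 and 0.76. The count was 7 without library 3 at 0.1 ng/ml and also 7 without the libraries numbered 1, and 29 with the block of library numbers (57% of all genes). With library totals 0 were higher and 47 lower, against 6.32% and 46% of all genes. Without the 3 libraries richest in reads of Rn45s, a ribosomal RNA precursor gene, it was 3, and the Mrpl52 call was lost (0.55).

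Fibronectin, an extracellular matrix protein, gave WT cells nearly the values that 10 ng/ml LPS did. With fibronectin 15 members rose and 13 fell, against 23.7% and 26.5% of all genes, and 20 of the 28 kept the call without each of the 6 libraries in turn. The split was 18 and 12 with RLE, 7 and 21 with upper quartile scaling, 1 and 54 with library totals (11.2% and 55.6% of all genes), and 27 and 20 with the block of library numbers, where 72% of all genes were called. By subunit, 13 rose and 9 fell of the 49 large subunit members and 2 and 4 of the 26 small subunit members. Compared directly, WT cells with fibronectin and with 10 ng/ml LPS differed in 0 of 76 members by edgeR, DESeq2 and limma, with 0 at an unadjusted p under 0.05. Of all genes 0% passed edgeR's test in either direction, with or without the block.

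Mrpl52 read 53.2, 56.1 and 60.1 CPM with fibronectin, all above the untreated libraries (log2 fold change 1.77, SE 0.18, edgeR adjusted p = 1.56e-07). Mrpl3 read 57.7, 56.9 and 58.8 CPM (0.93, SE 0.13, edgeR adjusted p = 5.8e-06), with a spread of less than 1 CPM (SD 0.95). Mrpl39 (0.79), Mrpl46 (0.73) and Mrpl54 (0.67), another mitochondria-specific large subunit protein, rose too. Of these, Mrpl46 and Mrpl54 turned negative with library totals (−0.06 and −0.12). Mrpl30 rose by 0.64 and lost the call without untreated library 2 (0.48) or 3 (0.61) or fibronectin library 1 (0.49) or 3 (0.60).

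Mrpl49 read 14.1, 11.3 and 16.7 CPM with fibronectin, below all untreated libraries (log2 fold change −0.96, SE 0.14, edgeR adjusted p = 8.48e-06). Mrpl41 fell by 0.94, Mrps35 by 0.81 and Mrpl2 by 0.71. Mrps26 fell by 0.83, but not past the threshold without untreated library 1 (−0.63) or fibronectin library 2 (−0.73). Mrpl18 fell by 0.62 (edgeR adjusted p = 0.0406) and lost the call without untreated library 1 (−0.42) or fibronectin library 2 (−0.53) or 3 (−0.54).

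In KO cells at 10 ng/ml LPS against untreated, 14 members rose and 10 fell, where 21.2% of all genes rose and 21.6% fell. The number called was 18 to 23 when 1 library was left out. Of the rises 11 were shared with WT cells, 73.3% of the 15 in WT and 78.6% of the 14 in KO. Of the falls 8 were shared, 66.7% of the 12 in WT and 80% of the 10 in KO. Over all genes the shared rises were 76.6% of those in WT and 84.1% of those in KO cells, and the shared falls 71.7% and 86.5%. The shared rises were Mrpl20, Mrpl3, Mrpl32, Mrpl37, Mrpl39, Mrpl46, Mrpl52, Mrpl54, Mrps18a, Mrps2 and Mrps22, and the shared falls Mrpl2, Mrpl34, Mrpl41, Mrpl43, Mrpl44, Mrpl49, Mrps26 and Mrps35. The KO split was 4 rises and 31 falls with library totals (11.3% and 42.3% of all genes), 7 and 18 with upper quartile scaling, and 28 and 18 with the block of library numbers, where 66% of all genes were called. Fitted on the 2 compared groups alone, 15 members were called.

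Mrpl52 read 15.4, 15.4 and 21.5 CPM in untreated KO libraries and 60.1, 50.8 and 72.5 CPM at 10 ng/ml, a 3.51-fold rise (log2 fold change 1.81, SE 0.18, edgeR adjusted p = 2.32e-07). Mrpl39 read 21.9, 23.6 and 25.6 CPM against 50.1, 58.3 and 57.9 CPM, without overlap (1.22, SE 0.16, edgeR adjusted p = 6.29e-06). Mrpl32, a bacterial-type protein cut by a mitochondrial protease before it joins the large subunit, had very little spread, with 10.1 ± 0.061 CPM untreated and 18.3 ± 0.32 CPM with LPS (0.85, SE 0.16, edgeR adjusted p = 0.000199). Mrps35 went from 10.8 ± 0.61 to 5.49 ± 0.14 CPM, the largest fall in KO cells (−0.98, SE 0.14, edgeR adjusted p = 1.63e-05). Mrpl49 fell by 0.73 and Mrpl2 by 0.66. Mrpl41 fell by 0.75 and lost its call without untreated library 1 (−0.65) or 3 (−0.71) or LPS library 2 (−0.68) or 3 (−0.73). Mrps26 fell by 0.69 and lost it without untreated library 1 (−0.52) or 3 (−0.75) or LPS library 2 (−0.46) or 3 (−0.71).

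Within KO cells, 10 ng/ml against 0.1 ng/ml LPS gave 10 higher and 7 lower members, where 18.3% of all genes were higher and 18.5% lower. Mrpl52 read 23.9, 21.1 and 24.8 CPM at 0.1 ng/ml and 60.1, 50.8 and 72.5 CPM at 10 ng/ml, so the groups lay wide apart (log2 difference 1.39, SE 0.18, edgeR adjusted p = 6.77e-06). Mrpl39 was higher by 0.82 and Mrpl3 by 0.80, and Mrps35 was lower by 0.79, Mrpl41 by 0.71 and Mrpl49 by 0.65. The count was 10 without the libraries numbered 1, 11 in the fit of the 2 groups alone, 37 with the block (62.8% of all genes), and 2 higher and 31 lower with library totals (9.61% and 37.2% of all genes).

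Under TMM scaling and without library numbers in the fit, no member's LPS response differed between the genotypes past the threshold. The difference between the genotypes' log2 fold changes (KO minus WT) was called in 0 of 76 members at 0.1 ng/ml and in 0 of 76 at 10 ng/ml by edgeR, DESeq2 and limma, with 3 and 3 members at an unadjusted p under 0.05. Over all genes 2.29% and 5.28% were called. The block of library numbers, which pair samples within a genotype, called 1 and 5 (13.4% and 21.7% of all genes). At 0.1 ng/ml this was Mrpl52 (−0.58). At 10 ng/ml Mrpl50 (0.58), Mrpl39 (0.45) and Mrps31 (0.44) were more positive in KO cells, and Mrpl30 (−0.45) and Mrpl35 (−0.39) more negative. With library totals and no block, Mrpl50 (0.91, edgeR adjusted p = 0.0148) and Mrpl32 (0.65, 0.0276) were called at 10 ng/ml, both more positive in KO cells. Untreated KO and WT cells differed in 0 of 76 members by edgeR, with 0 at an unadjusted p under 0.05 and 0 called by DESeq2, by limma and with the block. Of all genes 0% were higher and 0.00752% lower, and 0.143% were called with the block. At 0.1 ng/ml, 1 member was called lower in KO cells and 0 higher, where 6.33% of all genes were lower and 2.97% higher. This was Mrpl37, and the count was 0 without WT library 1 or 2 or KO library 2 or 3, 4 without WT library 3, and 7 with the block (18.9% of all genes). At 10 ng/ml, 1 member (Mrpl50) was higher and 2 (Mrpl37 and Mrps15) lower, with 8.05% and 7.85% of all genes. The count was 1 without KO library 2 and 0 without KO library 3, and 9 with the block (25.1% of all genes). With library totals 24 members were higher and 0 lower (25.9% and 4.88% of all genes), Mrpl50 among them (0.90), while Mrpl37 (0.01) and Mrps15 (0.07) were not called.

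With fibronectin the genotypes did differ. In KO cells 7 members rose and 2 fell with fibronectin, against 9.23% and 7.17% of all genes. The rises were Mrpl52, Mrpl39, Mrpl3, Mrps2, Mrpl32, Mrps7 and Mrpl37, and the falls Mrps35 and Mrps15. Of the rises 6 were also called in WT cells, 40% of the 15 there and 85.7% of the 7 in KO cells, and of the falls 1 was, 7.69% of 13 and 50% of 2. Over all genes these shares were 32.95% and 84.7% for rises and 23% and 84.9% for falls. Mrpl52 read 32.5, 33.6 and 44.0 CPM with fibronectin in KO cells, above untreated KO libraries (15.4, 15.4 and 21.5) and below every WT library with fibronectin (log2 fold change 1.07, SE 0.18, edgeR adjusted p = 0.000278). Mrpl39 read 45.7, 46.1 and 52.8 CPM, overlapping WT cells with fibronectin (38.8, 37.6 and 52.4 CPM; 1.02, SE 0.16, edgeR adjusted p = 0.000179). Mrpl3 rose by 0.53 (SE 0.13, edgeR adjusted p = 0.00609). Mrpl52, Mrpl39 and Mrpl3 were the calls kept without each of the 6 libraries. The count was 4 without untreated library 1, 3 without untreated library 2, 5 without fibronectin library 1 or 2 and 3 without fibronectin library 3. It was 2 without the libraries numbered 1, where the Mrpl3 call was lost (0.53, edgeR adjusted p = 0.132) and Mrpl52 and Mrpl39 were kept. The block of library numbers called 25 (44% of all genes), and library totals 5, while 6.61% of all genes rose and 8.7% fell.

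In KO cells fibronectin and 10 ng/ml LPS, compared directly, differed in 9 members, 6 higher and 3 lower with fibronectin, where 7.55% of all genes were higher and 9.43% lower. Mrpl52 was lower with fibronectin by 0.74 (SE 0.18, edgeR adjusted p = 0.00672) and Mrpl3 by 0.41, while Mrpl49 was higher by 0.60 (edgeR adjusted p = 0.00432), Mrps35 by 0.55 and Mrpl2 by 0.38. The count was 4 without LPS library 1 or 2 or fibronectin library 2, and 11 higher and 13 lower with the block (44.8% of all genes). With library totals it was 27 higher and 0 lower, against 24.7% and 5.32% of all genes. It was 0 without the libraries numbered 1 and 0 in the fit of the 2 groups alone.

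Compared at fibronectin directly, 11 members were higher and 9 lower in KO than in WT cells, where 21% of all genes were higher and 17.6% lower. This comparison shares its WT libraries with that of fibronectin against untreated WT cells. Mrpl49 read 23.2, 27.4 and 26.6 CPM in KO against 14.1, 11.3 and 16.7 CPM in WT cells with fibronectin, without overlap (log2 difference 0.87, SE 0.14, edgeR adjusted p = 4.29e-05). Mrpl50 was higher by 0.61 (30.5, 27.7 and 36.9 against 22.7, 19.8 and 19.6 CPM), Mrpl40 by 0.56 and Mrpl43 by 0.53. Mrpl2 read 22.3 ± 0.83 against 16.2 ± 0.88 CPM (0.46, SE 0.10, edgeR adjusted p = 0.000799). Mrps35 was higher by 0.46 and lost its call without WT library 1 (0.36).

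On the other side, Mrpl52 was lower in KO cells by 0.62, Mrpl46 by 0.50, Mrpl54 by 0.49 and Mrpl3 by 0.46, all with edgeR adjusted p of at most 0.00932. Mrpl30 was lower by 0.75 and lost its call without WT library 1 (−0.60) or 3 (−0.71) or KO library 2 (−0.75) or 3 (−0.60). Mrpl13 was lower by 0.57 and lost it without WT library 3 (−0.48) or KO library 1 (−0.45), and Mrpl54 lost it without WT library 1 (−0.41). Of the 20 calls 12 held without each library in turn, and 11 members were called without the libraries numbered 1 (9 of the 20 among them), Mrpl52, Mrpl3, Mrpl46, Mrpl54 and Mrps35 not being among these. With library totals 55 members were higher and 0 lower in KO cells (51.4% and 8.4% of all genes), and Mrpl52, Mrpl13, Mrpl46, Mrpl54 and Mrpl3 changed sign (0.03 to 0.19). The fit on the 2 groups alone called 13, upper quartile scaling 20 higher and 3 lower, and the block 17 higher and 13 lower (50.1% of all genes called).

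The fibronectin response itself differed between genotypes in 8 members, 6 with a more positive and 2 with a more negative change in KO cells, where 11.8% and 11.3% of all genes did. Mrpl49 changed by −0.96 in WT and by −0.12 in KO cells, a difference of 0.83 (SE 0.19, edgeR adjusted p = 0.00319), and it is the only 1 of the 8 called without each of 12 libraries in turn. Without the libraries numbered 1 the difference was 0.87 with an adjusted p of 0.0594. Mrpl50 (0.63), Mrpl40 (0.58), Mrpl43 (0.46), Mrps23 (0.46) and Mrpl2 (0.44) also differed upward, and Mrpl46 (−0.46) and Mrps15 (−0.32) downward. The downward differences turned positive with library totals (0.19 for Mrpl46 and 0.32 for Mrps15). The count was 4 without WT untreated library 1 or 2, 5 without WT untreated library 3, 3 without WT fibronectin library 2 and 2 without WT fibronectin library 3. It was 5, 4, 5, 5 and 3 without KO untreated library 1 or 2 or KO fibronectin library 1, 2 or 3. The balance of 6 to 2 was not kept by other settings: 5 and 5 were called by DESeq2, 4 and 5 with RLE, 7 and 0 with upper quartile scaling. The block of library numbers called 13 upward and 12 downward (49.3% of all genes), and the fit without libraries numbered 1 called 2. Library totals called 41 upward and 0 downward, against 37.6% and 6.08% of all genes.

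**Figure D5:**
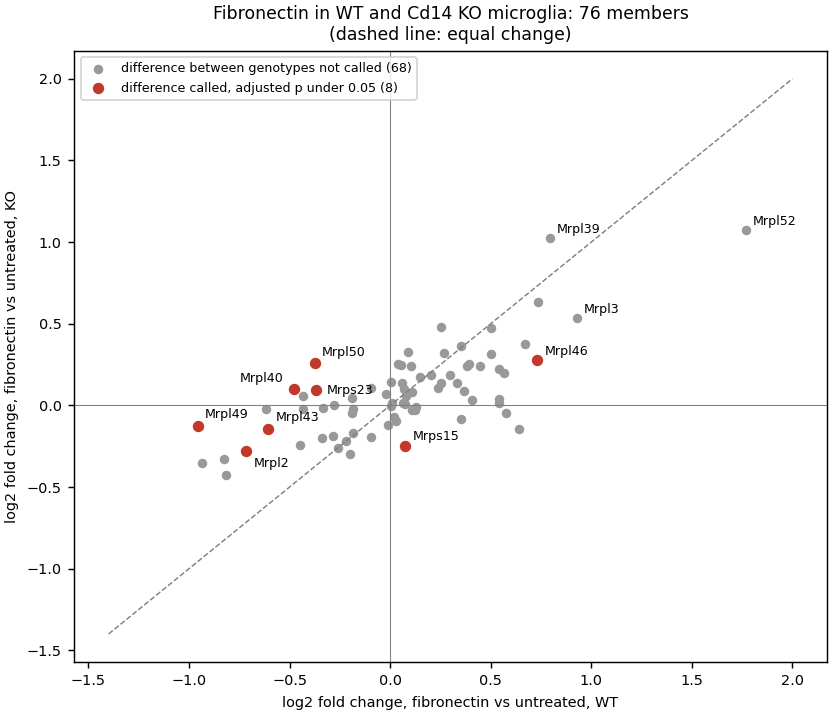
Log2 fold change with fibronectin against untreated cells of the same genotype, WT on the x axis and KO on the y axis, for the 76 members. Red marks the 8 members whose change differed between genotypes (edgeR adjusted p under 0.05); Mrpl49 lies at −0.96 in WT and −0.12 in KO cells, and Mrpl46 and Mrps15 change the sign of their difference with library totals.

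Mrpl12, the stalk protein that also binds the mitochondrial RNA polymerase, read 38.2, 27.2 and 20.1 CPM in untreated WT libraries and 35.0, 23.8 and 19.9 CPM at 10 ng/ml LPS. Libraries numbered 1 were the highest in every group and the groups overlapped (log2 fold change −0.12, edgeR adjusted p = 0.812). Of the 3 Mrps18 paralogs, Mrps18a of the large subunit went from 29.96 ± 0.60 to 39.0 ± 1.1 CPM (0.38, edgeR adjusted p = 0.00026). Mrps18c went from 12.03 ± 1.3 to 16.4 ± 3.7 CPM with overlap (0.45, edgeR adjusted p = 0.0199), a call lost without untreated library 2 (0.36) or LPS library 1 (0.34) or 3 (0.36) and without the libraries numbered 1 (0.39). Mrps18b read 13.9, 9.88 and 6.03 CPM untreated and 31.0, 13.9 and 9.82 CPM with LPS, so that the groups overlapped and the difference was not called (0.88, SE 0.47, edgeR adjusted p = 0.133). It was higher with LPS at each of the 3 library numbers, and the block of library numbers, which pair the WT samples, called it (0.82, SE 0.13, edgeR adjusted p = 1.25e-05). With library totals it was 0.07 and not called (edgeR adjusted p = 0.89).

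Mrps30, a large subunit protein, was at 0.34 (edgeR adjusted p = 0.0542, and 0.0177 with the block) with LPS and at 0.39 (0.0283) with fibronectin, the latter lost without untreated library 1 (0.38) or 3 (0.35) or any of the 3 fibronectin libraries (0.41, 0.39 and 0.37). Mrps6 was at 0.16 (edgeR adjusted p = 0.384) with LPS, and at −0.09 with upper quartile scaling. With library totals, Mrps18a, Mrps18c, Mrps30 and Mrps6 were all negative (−0.42, −0.36, −0.46 and −0.64). Of 7 mitoribosomal proteins whose symbols do not start with Mrp, only Chchd1 was called in WT cells at 10 ng/ml LPS, from 21.7 ± 0.75 to 26.4 ± 0.42 CPM (0.28, SE 0.08, edgeR adjusted p = 0.00467, and −0.52 with library totals).

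Neighbouring genes moved with some of the named members, against others, or not at all. In the GRCm38 annotation Mrpl52 is on chromosome 14, bases 54426909 to 54429756, forward strand, and Mmp14, a membrane metalloprotease gene, begins 1856 bases beyond its end on the same strand. Mmp14 rose from 28.3 ± 20.6 to 518 ± 225 CPM in WT cells at 10 ng/ml LPS (log2 fold change 4.20, SE 0.66, edgeR adjusted p = 3.01e-05). Mrpl41 (chromosome 2, 24974117 to 24975098, reverse strand) lies head to head with Pnpla7, 935 bases away, and Pnpla7 fell by 1.08. Mrpl2 (chromosome 17, 46646229 to 46650139, forward strand) is 207 bases from Klc4, which fell by 1.72, and 198 bases from Cul7, which fell by 1.70. Mrpl30 is 66 bases from Mitd1, which rose by 2.83. Apba3, head to head with Mrpl54 at 26 bases, fell by 0.57 (edgeR adjusted p = 0.00309) while Mrpl54 rose, and Fau, 59 bases from Mrpl49, did not pass the test (0.43, SE 2.69, edgeR adjusted p = 0.934).

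Mrpl49 (chromosome 19, 6053622 to 6057785, reverse strand) shares 91 exon bases, 4.85% of its own, with Syvn1 on the opposite strand, an endoplasmic reticulum ubiquitin ligase gene. Syvn1 rose from 53.5 ± 1.4 to 113 ± 8.4 CPM (1.08, SE 0.12, edgeR adjusted p = 5.47e-07) while Mrpl49 fell. Mrpl46 shares 173 exon bases (12.2%) with Mrps11 on the opposite strand, and Mrps11 did not pass the test (0.02, edgeR adjusted p = 0.936). In all, 19 members share exon bases with another counted coding gene, up to 77.8% in Mrps34 and 69.8% in Mrps25. Whether reads were counted by strand is not given in the sources used here, so values of these members are less certain, and the neighbours' part in the members' values was not tested. Named pseudogenes exist for Mrpl23, Mrpl48 and Mrps36, whose counts are uncertain for that reason too.

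Other genes that serve the mitoribosome were tested in the same fit, here for WT cells at 10 ng/ml LPS. Of all genes 23.3% rose and 26.1% fell in that comparison. Of 24 tested genes for assembly and ribosomal RNA modification 3 rose and 11 fell (median log2 fold change −0.46). The ribosomal RNA methyltransferase genes Mrm1 and Ftsj2 fell by 2.02 and 1.88, Mrm1 from 14.3 ± 1.2 to 3.53 ± 0.58 CPM. Of 13 translation factors 1 rose and 9 fell (median −0.79), among them Gfm2, which helps recycle ribosomes, from 82.4 ± 12.6 to 24.5 ± 3.2 CPM (−1.75, SE 0.24, edgeR adjusted p = 5.75e-06), the release factor Mtrf1 (−1.45) and the translational activator Taco1 (−1.22). Of 17 mitochondrial tRNA synthetases 0 rose and 8 fell (median −0.46), among them Pars2 (−1.57) and Mars2 (−1.53).

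Of 16 genes for mitochondrial DNA expression and RNA processing 2 rose and 3 fell, against 3 and 7 with the block and 1 and 13 with library totals. The helicase gene Peo1 fell from 13.3 ± 1.9 to 1.82 ± 0.20 CPM (−2.87), the mitochondrial RNA polymerase gene Polrmt fell by 0.86, and the exoribonuclease gene Pnpt1 rose from 26.7 ± 6.5 to 147 ± 36.1 CPM (2.46). Of 10 regulators of mitochondrial biogenesis 7 rose and 1 fell (median 0.90), with the coactivator gene Ppargc1b going from 2.09 ± 0.81 to 25.5 ± 2.8 CPM and Gabpb1, a subunit of an ETS-family factor, from 16.8 ± 0.026 to 54.5 ± 3.0 CPM. Myc fell by 1.27. Of 79 genes taken by symbol as nuclear oxidative phosphorylation subunits 21 rose and 3 fell (median 0.31). The falls were those of Atp5sl (−2.07), Atp5s (−1.81) and Cox4nb (−0.97), which match by symbol and are not established subunits. Of 78 cytosolic ribosomal protein genes 3 rose and 0 fell (median 0.44). Beside these lists stand the members, with 15 rises and 12 falls of 76 and a median of 0.07. The block of library numbers called 64 rises and 0 falls among the cytosolic ribosomal protein genes and 47 and 4 among the oxidative phosphorylation genes. It called 70.2% of all genes. Upper quartile scaling called 0 and 0 of the former and 4 and 4 of the latter, and library totals 0 rises with 2 falls and 0 rises with 46 falls. Of all genes 10.9% rose and 55.7% fell with library totals. With library totals the median turned negative for both lists (−0.37 and −0.51) and was 0.10 for the biogenesis regulators, 2 of which then rose and 3 fell. It was −1.26 for the assembly genes, −1.60 for the translation factors and −1.25 for the synthetases. In KO cells with fibronectin, 1 of the 24 assembly genes rose and 1 fell, and 0 of 13 translation factors rose and 2 fell. There 9.23% of all genes rose and 7.17% fell. Compared with WT cells at fibronectin, KO cells had 10 assembly genes, 9 translation factors and 6 synthetases higher and 0 lower in each list, where 21% of all genes were higher and 17.6% lower. With library totals, where 51.4% of all genes were higher, it was 23, 12 and 16 higher.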

How the data were processed

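RNA of 24 cultures was sequenced on a HiSeq2000. Per the submitters' processing notes, HTSeq 0.5.4, Bowtie2 2.1.0, DESeq, CASAVA 1.8.2, SAMtools 0.1.19 and FastQC 0.10.0 are named, with build mm10. The annotation and strand setting are not given in the sources used here. The authors deposited a table of read counts per gene symbol (18919 genes) and a table of normalized signal (12889 genes), which the values show to be the counts divided by 1 factor per library. Members were taken from the second table by symbol, and every fit used the counts, except an alternative with limma on log2(normalized signal + 1).

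Genes with low counts were removed with filterByExpr (minimum count 10, minimum total 15), libraries were scaled by TMM, and 17 contrasts were tested over all 24 libraries with edgeR 4.0.16 (quasi-likelihood, robust, 16 residual degrees of freedom, R 4.3.3), with Benjamini-Hochberg adjustment over 13294 genes within each contrast. DESeq2 1.42.0 and limma 3.58.1 were alternatives. Calls are at an adjusted p under 0.05, and fold changes carry a prior count of 0.125. The fit was tested on simulated data. The text names Mrpl12, Mrps6, Mrps18a, Mrps18b, Mrps18c, Mrps30 and mitoribosomal proteins under other names, and in each contrast up to 6 called members with the largest rise and 6 with the largest fall, plus up to 3 called genes of each other list, of which 1 is not reported here. The genes of 5 or fewer per count, the neighbours and the members that vary most were named after their values were seen. Members and gene lists were chosen with earlier results of these data known. Markers of the neuron list summed to 1.52 to 45.7 CPM.

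Library numbers in the labels pair samples within a genotype: deviations from group means correlated between same-numbered libraries by 0.628 to 0.973 in WT and 0.813 to 0.969 in KO cells (8320 genes of mean CPM of at least 10), and the best partner of 24 of 24 libraries had its own number. The design text gives 3 cell preparations. Between genotypes the correlations were 0.835 to 0.887 for number 1, 0.376 to 0.476 for 2 and 0.251 to 0.347 for 3. Differently numbered libraries gave −0.805 to 0.778 there, a range that includes the values for 2 and 3. Pairing between genotypes is thus not shown for those numbers. The block was nested in genotype. For KO against WT it was common to all libraries, which treats same-numbered libraries of both genotypes as paired. In a nested fit, a KO against WT value is the difference fitted for the libraries numbered 1. Gene positions are from GENCODE M21 and promoters from RefSeq, both on GRCm38.p6.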

Additional observations from a re-analysis of the deposited data

Results flagged for a closer look

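The change with fibronectin differed between KO and WT cells in 8 members by edgeR's test of the difference itself, each value here being the KO log2 fold change less the WT one. These are 10.5% of the members, a smaller share than the 23.1% of all genes called by the same test. Mrpl49 had the largest difference, 0.83 (SE 0.19, edgeR adjusted p = 0.00319). The other upward differences were those of Mrpl50 by 0.63 (edgeR adjusted p = 0.0434), Mrpl40 by 0.58 (0.0191), Mrpl43 by 0.46 (0.028), Mrps23 by 0.46 (0.0309) and Mrpl2 by 0.44 (0.0252). Mrpl50 was not called with DESeq2 (adjusted p = 0.0567) or in edgeR with RLE scaling (0.0694), nor Mrps23 with RLE scaling (0.057). Mrpl46, at −0.46 (edgeR adjusted p = 0.0319), and Mrps15, at −0.32 (0.047), were downward, and both turned upward with library totals. Mrpl43 is the member still called without the 8 libraries numbered 1, and Mrpl49 the member still called without each of the 12 libraries in turn.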

How the results depend on the processing

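All 76 members passed the filter on low counts, and comparisons rest on 3 libraries per group. The block of library numbers gave more calls in most comparisons, and the scaling moved the balance of rises and falls. Of the alternatives for single genes, 1569 kept direction and side of the threshold, 245 lost the call, 10 gained it and 48 turned sign. The cause of each change below was not tested. In fits with the block nested in genotype, KO against WT values are the differences fitted for the libraries numbered 1. Values given are numbers of members called, and comparisons not listed for a setting stayed within 1.5 times. The share of all genes called is given above for only some of these comparisons and settings. Where it is not, a count of members cannot be set against all genes.

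DESeq2 called 5 for KO against WT at 0.1 ng/ml and 5 for KO against WT at 10 ng/ml. Fits of the compared groups alone called 2 for WT cells at 0.1 ng/ml LPS, 15 for KO cells at 10 ng/ml, 2 for KO cells with fibronectin, 0 for KO against WT at 0.1 ng/ml, 0 for KO against WT at 10 ng/ml, 13 for KO against WT with fibronectin, 3 for the 2 LPS doses in WT cells, 11 for the 2 LPS doses in KO cells and 0 for fibronectin against 10 ng/ml LPS in KO cells. A filter of 5 CPM in 3 libraries gave 3 for KO against WT at 0.1 ng/ml. Scaling by library totals called 8 for WT cells at 0.1 ng/ml LPS, 53 for WT cells at 10 ng/ml, 55 for WT cells with fibronectin, 5 for KO cells with fibronectin, 24 for KO against WT at 10 ng/ml, 55 for KO against WT with fibronectin, 2 for the genotype difference in response to 10 ng/ml, 41 for the genotype difference in response to fibronectin, 47 for the 2 LPS doses in WT cells, 33 for the 2 LPS doses in KO cells and 27 for fibronectin against 10 ng/ml LPS in KO cells. Library totals together with the replicate block nested in genotype (chosen after seeing the data) called 25 for WT cells at 0.1 ng/ml LPS, 68 for WT cells at 10 ng/ml, 67 for WT cells with fibronectin, 1 for KO cells at 0.1 ng/ml, 55 for KO cells at 10 ng/ml, 22 for KO cells with fibronectin, 12 for KO against WT at 0.1 ng/ml, 41 for KO against WT at 10 ng/ml, 65 for KO against WT with fibronectin, 3 for the genotype difference in response to 0.1 ng/ml, 23 for the genotype difference in response to 10 ng/ml, 63 for the genotype difference in response to fibronectin, 71 for the 2 LPS doses in WT cells, 53 for the 2 LPS doses in KO cells and 46 for fibronectin against 10 ng/ml LPS in KO cells. Without a filter on low counts the number called was 4 for KO cells with fibronectin, 0 for KO against WT at 0.1 ng/ml, 1 for KO against WT at 10 ng/ml, 2 for the genotype difference in response to fibronectin and 4 for fibronectin against 10 ng/ml LPS in KO cells. The replicate block nested in genotype called 26 for WT cells at 0.1 ng/ml LPS, 43 for WT cells at 10 ng/ml, 47 for WT cells with fibronectin, 1 for KO cells at 0.1 ng/ml, 46 for KO cells at 10 ng/ml, 25 for KO cells with fibronectin, 12 for KO against WT at 0.1 ng/ml, 9 for KO against WT at 10 ng/ml, 36 for KO against WT with fibronectin, 1 for the genotype difference in response to 0.1 ng/ml, 5 for the genotype difference in response to 10 ng/ml, 25 for the genotype difference in response to fibronectin, 29 for the 2 LPS doses in WT cells, 37 for the 2 LPS doses in KO cells and 24 for fibronectin against 10 ng/ml LPS in KO cells.

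The replicate block over all libraries called 8 for WT cells at 0.1 ng/ml LPS, 14 for KO cells with fibronectin, 7 for KO against WT at 0.1 ng/ml, 9 for KO against WT at 10 ng/ml, 1 for the genotype difference in response to 10 ng/ml, 20 for the genotype difference in response to fibronectin, 30 for the 2 LPS doses in KO cells and 14 for fibronectin against 10 ng/ml LPS in KO cells. Upper quartile scaling (chosen after seeing the data) called 5 for KO cells with fibronectin, 0 for KO against WT at 0.1 ng/ml and 1 for KO against WT at 10 ng/ml. Without the 3 libraries richest in Rn45s the number called was 9 for WT cells at 0.1 ng/ml LPS, 0 for KO against WT at 0.1 ng/ml and 3 for the 2 LPS doses in WT cells. Without the 8 libraries numbered 1 (chosen after seeing the data) the number called was 1 for WT cells at 0.1 ng/ml LPS, 2 for KO cells with fibronectin, 0 for KO against WT at 0.1 ng/ml, 1 for KO against WT at 10 ng/ml, 11 for KO against WT with fibronectin, 2 for the genotype difference in response to fibronectin, 7 for the 2 LPS doses in WT cells, 10 for the 2 LPS doses in KO cells and 0 for fibronectin against 10 ng/ml LPS in KO cells. With each library left out in turn, the number of members called ranged from 2 to 9 for WT cells at 0.1 ng/ml LPS, 21 to 25 for WT cells at 10 ng/ml, 22 to 25 for WT cells with fibronectin, 18 to 23 for KO cells at 10 ng/ml, 3 to 6 for KO cells with fibronectin, 0 to 4 for KO against WT at 0.1 ng/ml, 0 to 4 for KO against WT at 10 ng/ml, 16 to 19 for KO against WT with fibronectin, 2 to 8 for the genotype difference in response to fibronectin, 7 to 12 for the 2 LPS doses in WT cells, 14 to 19 for the 2 LPS doses in KO cells and 4 to 7 for fibronectin against 10 ng/ml LPS in KO cells. The members' median relative to that of all genes ranged from 0.035 to 0.17 for WT cells at 0.1 ng/ml LPS, 0.048 to 0.23 for WT cells at 10 ng/ml, 0.033 to 0.19 for WT cells with fibronectin, −0.031 to 0.092 for KO cells at 0.1 ng/ml, 0.058 to 0.29 for KO cells at 10 ng/ml and 0.034 to 0.20 for KO cells with fibronectin.

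With library totals the log2 changes that turned sign were Mrpl39 −0.0069, Mrpl46 −0.12, Mrps22 −0.14, Mrpl30 −0.16, Mrps6 −0.64, Mrps18a −0.42, Mrps18c −0.36, Mrps30 −0.46 and Chchd1 −0.52 for WT cells at 10 ng/ml. They were Mrpl46 −0.061, Mrpl54 −0.12, Mrpl30 −0.16, Mrps30 −0.39 and Mrps18a −0.42 for WT cells with fibronectin. They were Mrpl52 0.032, Mrpl13 0.093, Mrpl46 0.17, Mrpl54 0.17 and Mrpl3 0.19 for KO against WT with fibronectin and Mrpl46 0.19 and Mrps15 0.32 for the genotype difference in response to fibronectin. With library totals and the replicate block the log2 changes that turned sign were Mrpl39 −0.023, Mrpl46 −0.12, Mrps22 −0.13, Mrpl30 −0.15, Mrps6 −0.64, Mrps18a −0.42, Mrps18c −0.37, Mrps30 −0.46 and Chchd1 −0.52 for WT cells at 10 ng/ml. They were Mrpl39 −0.0042, Mrpl46 −0.063, Mrpl54 −0.11, Mrpl30 −0.15, Mrps30 −0.40 and Mrps18a −0.42 for WT cells with fibronectin. They were Mrpl30 0.0046, Mrpl52 0.087, Mrpl13 0.052, Mrpl46 0.098, Mrpl54 0.071 and Mrpl3 0.13 for KO against WT with fibronectin and Mrpl46 0.19 and Mrps15 0.33 for the genotype difference in response to fibronectin. The KO against WT values of this fit are differences at library number 1 only. Mrps6 in WT cells at 10 ng/ml was −0.088 with upper quartile scaling. Mrpl12 there was 0.042 without the libraries richest in Rn45s, 0.15 without untreated library 1 and 0.041 without LPS library 3. The blocks kept all 27 calls of WT cells at 10 ng/ml, all 28 with fibronectin, all 24 of KO cells at 10 ng/ml and all 9 with fibronectin.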
